A study of Bos taurus with 20 samples.

Results

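On cattle chromosome 1, near the polled locus that decides whether horns form, lies a run of genes that holds 4 receptor chains for interferons and interleukin 10, with several unrelated neighbours. Taken here were IFNAR1, IFNAR2, IFNGR2 and IL10RB, together with SLC5A3, SON, GART, OLIG1, OLIG2 and SYNJ1. A probe was taken when the array annotation gave one of these symbols as its gene name or named the gene in its description, which found 13 of 21475 probes, at least 1 for each of the 10 genes (of 14732 gene symbols on the array). In the RefSeq gene table (assembly ARS-UCD2.0) the members run in the order SLC5A3, SON, GART, IFNGR2, IFNAR1, IL10RB, IFNAR2, OLIG1, OLIG2 and SYNJ1 on chromosome 1, with other genes between some of them. The array files name no genome build, so no coordinates are given.

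The RNA came from bovine skin biopsies that held epidermis, dermis and dermal connective tissue, and it was measured on 20 two-colour Agilent arrays, 4 on each of 5 chips. Horn-forming skin was taken from 4 polled cattle (naturally hornless; 1 male, 3 females), 4 scurred cattle (with small horn-like growths not fixed to the skull; 3 males, 1 female) and 3 horned cattle (2 males, 1 female). Chips 1 to 4 each joined 1 polled, 1 scurred and 1 horned animal, and horned replicate 2 served on chips 2 and 4. On these chips polled was set against horned in both dye orders. Scurred RNA was in 1 dye order only, green against horned and red against polled. Chip 5 set horn site against skull skin away from it, in polled replicate 3 and scurred replicate 2, again in both dye orders. Breed, age and genotype are not given in the sources used here. Where the polled animal of a chip was female the scurred one was male, and the reverse, on all 4 chips.

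Receptors of this family sit in the membrane as pairs of unlike chains. IFNAR1 and IFNAR2 form the receptor for type I interferons, IFNGR2 joins IFNGR1 in the receptor for interferon gamma, and IL10RB is the chain shared by the receptors for interleukin 10, interleukin 22 and the lambda interferons. Binding of a ligand activates JAK kinases, which phosphorylate STAT factors that enter the nucleus and switch on interferon-stimulated genes. In skin, keratinocytes, fibroblasts and immune cells all carry such receptors. The neighbours do other work. SLC5A3 carries myo-inositol with sodium into cells, SON is a nuclear protein needed for splicing of many transcripts, GART catalyses steps of purine synthesis, SYNJ1 (synaptojanin 1) removes phosphates from inositol lipids during endocytosis, and OLIG1 and OLIG2 are transcription factors of the oligodendrocyte lineage.

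What the array sees of each gene is a 60-base probe. The 30 bases at the 3′ end are shown for the 3 probes with the lowest unadjusted p in polled against horned skin, and for a SYNJ1 and a SON probe. The other probe of SYNJ1 and the third of SON are shown whole, because the probes of these 2 genes bear on how far a single reading stands for the gene. Capitals mark ATTAAA, a variant of the polyadenylation signal, the rarer form of AATAAA. One of these was on the printed strand of 15.5% of all probes and of 3 of the 13. The reverse complements TTTATT and TTTAAT were in 6.3% of all probes. No other motif was searched, and whether a marked stretch works as a signal in its transcript was not tested.
IFNAR1, A_73_116078, bases 31 to 60: gagttcctgcagagaaaggaagtgtaggaa
IFNGR2, A_73_107789, bases 31 to 60: cacccatctcctggcttaaaatgtaattaa
SLC5A3, A_73_111047, bases 31 to 60: ctctcaggcattgtttacgctgtagatttt
SYNJ1, A_73_108683, bases 31 to 60: ttataggagtacagtATTAAAgtcagtggc
SYNJ1, A_73_115436, whole: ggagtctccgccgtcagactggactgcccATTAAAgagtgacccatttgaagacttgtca
SON, A_73_106294, bases 31 to 60: cccATTAAAatgccgcctgATTAAAtaatg
SON by description, A_73_115603, whole: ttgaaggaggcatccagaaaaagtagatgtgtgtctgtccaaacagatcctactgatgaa

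Between 62.24% and 73.75% of all spots on an array stood well above background by the scanner's own flag. Scurred replicate 1 was the animal least like the rest, with a mean correlation of 0.92 with the others across 15375 probes, against 0.947 to 0.964 for the other 10. Marker lists of other cell types were read beside the members, and 1 of their genes, a macrophage gene in polled against horned, was called. The mean log2 level of 10 keratinocyte genes ran from 11.62 to 13.05 in polled, 10.77 to 13.64 in scurred and 10.7 to 11.44 in horned animals. For 8 fibroblast genes the ranges were 12.93 to 14.2, 13.79 to 14.82 and 14.54 to 14.55 in the same order, and for 5 melanocyte genes 7.62 to 9.02, 7.19 to 9.91 and 6.97 to 7.04. Markers of macrophages (8 genes) lay at 10.38 to 11.77 in polled, 11.42 to 12.36 in scurred and 11.34 to 12.46 in horned animals. For 7 lymphocyte genes the ranges were 7.35 to 7.87, 7.45 to 7.9 and 7.03 to 7.41, with CD3D, CD5, CD79B and MS4A1 not well above background in enough animals. The 6 skeletal muscle genes spread most, from 9.91 to 15.24 in polled, 10.14 to 12.36 in scurred and 7.52 to 12.66 in horned animals, and the 4 red cell genes ran from 10.41 to 14.71, 10.63 to 13.25 and 9.53 to 10.51. Endothelial markers (8 genes) lay at 10.63 to 11.47 in polled, 10.8 to 11.17 in scurred and 11.2 to 11.45 in horned animals, and 5 Schwann cell genes at 11.34 to 12.34, 11.05 to 12.28 and 12.17 to 12.55. Polled and horned ranges were apart for keratinocyte, fibroblast and melanocyte markers and overlapped for the other 6 lists. Each horned range rests on 3 animals, and how often other sets of genes lie apart was not counted. In a biopsy, fewer cells of a type and less RNA per cell cannot be told apart, and the part of tissue makeup in the differences below was not tested.

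Of the 13 probes, 8 were well above background in all 11 animals and on every spot. These were the probes of IFNAR1, IFNAR2, IFNGR2 and IL10RB, all 3 of SON, and A_73_108683 of SYNJ1. SYNJ1 probe A_73_115436 passed in 11 animals and on 95% of spot channels (a spot in 1 dye). GART passed in 10 animals, with 1 scurred animal below, and SLC5A3 in 10, with 1 horned animal below. OLIG1 was well above background in 3 animals, 1 of each horn type, and on 30% of spot channels, and in no RNA of chip 5. OLIG2 was well above background on 0 of 80 spot channels, so it has no measured difference. A probe entered the tests when it passed in at least 3 of the 11 animals, which 12 of the 13 did.

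No member passed the threshold in any comparison between horn types (moderated tests in limma, Benjamini-Hochberg adjusted p under 0.05). The background for this count is low, since 1 of 15375 probes (0.0065%) was called in polled against horned, and 0% in scurred against horned and in scurred against polled. At an unadjusted p under 0.05, 3 of 12 member probes stood apart in polled against horned, namely SLC5A3, IFNAR1 and IFNGR2, where 9.35% of all probes did. In scurred against horned 0 of 12 did (3.75% of all), and in scurred against polled 2 of 12, IFNGR2 and IFNAR1 (5.96% of all). Without chip 2, or without polled replicate 2, the 3 in polled against horned became 0. They became 1 without horned replicate 2 and 4 without scurred replicate 1. Chip 2 holds polled replicate 2, the only polled male, and scurred replicate 2, the only scurred female. Without chip 2 every polled animal is female and every scurred one male, so sex and horn type are harder to separate. Chip 2 also held the largest polled minus horned difference for all 3 probes (−0.54 for IFNAR1, −0.75 for IFNGR2 and 1.16 for SLC5A3). Without chip 2 the estimates were −0.344, −0.418 and 0.485 in the same order. With all chips and no sex term the count stayed at 3. Why it fell without chip 2 was not tested. The 2 in scurred against polled became 0 without chip 2, chip 3, polled replicate 2, scurred replicate 2 or horned replicate 2, and that count moved by over 1.5 times under 18 of 24 alternatives. With 1 probe per gene, 4 of the 9 tested members were higher and 5 lower in polled than in horned skin, with a median log2 difference of −0.02, beside 0.01 over 11387 genes. In scurred against horned skin the split was again 4 and 5, with a median of −0.01 beside 0.01.

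**Figure D1:**
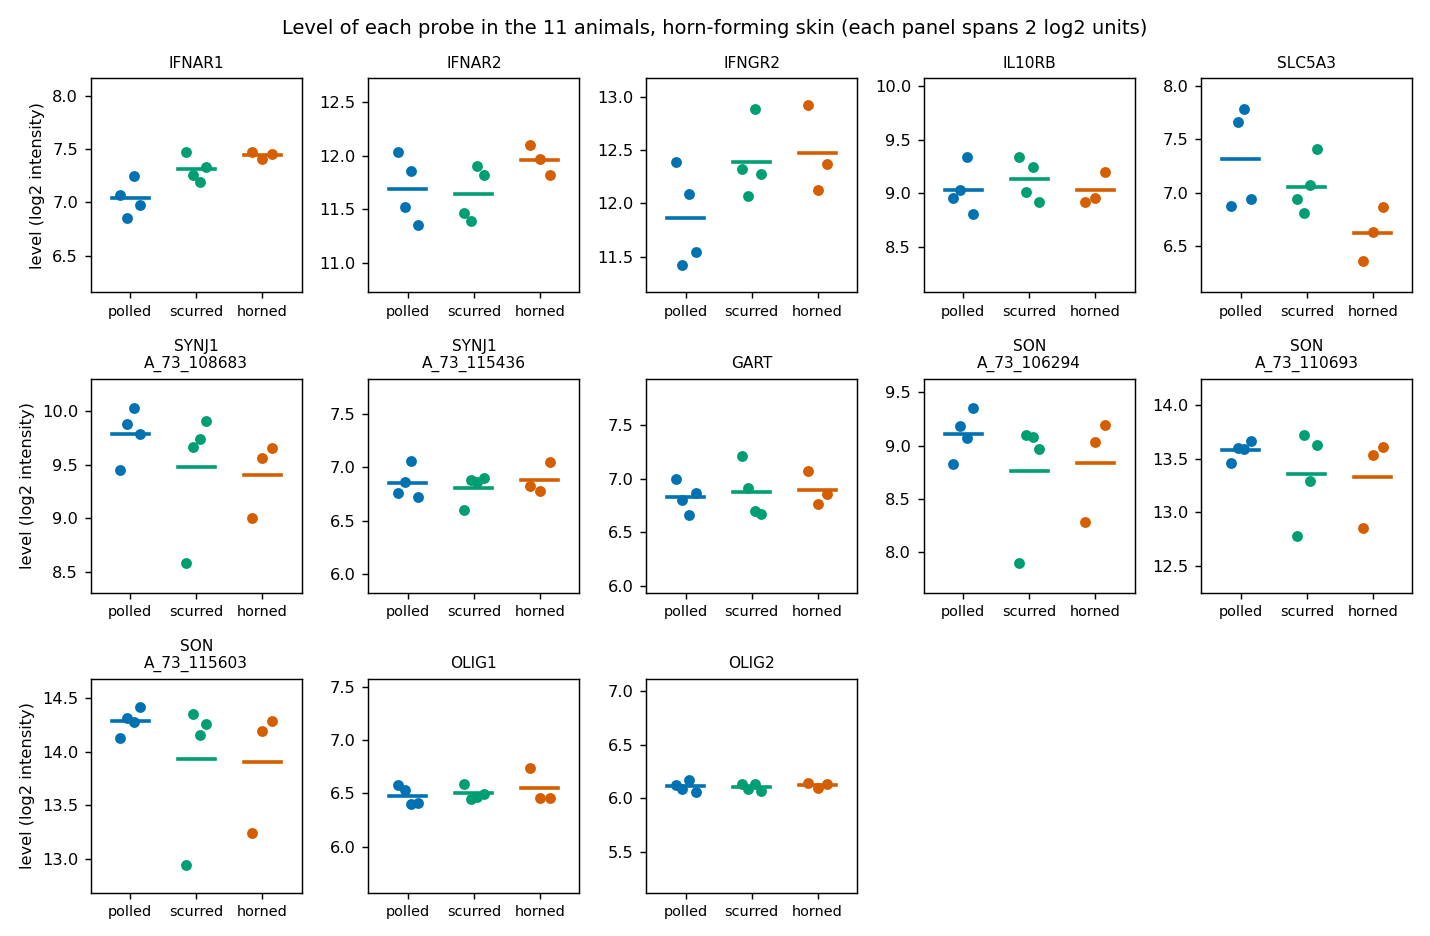
Each point is 1 animal and each bar the group mean; the y axis is the probe's level (log2 intensity), each panel spans the same 2 log2 units, and levels are not comparable between probes. For IFNAR1 the polled animals (6.85 to 7.25) lie below the horned ones (7.41 to 7.47), and for SLC5A3 they lie above (6.88 to 7.78 against 6.36 to 6.87). How many of all probes separate these groups was not counted.

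IFNAR1, which pairs with IFNAR2 in the type I interferon receptor, was lower in polled than in horned skin on every chip, without passing the test. Its level on the log2 scale was 7.07, 6.85, 7.25 and 6.98 in polled replicates 1 to 4, 7.47, 7.26, 7.19 and 7.33 in scurred replicates 1 to 4, and 7.47, 7.41 and 7.45 in the 3 horned animals. All 4 polled animals lay below all 3 horned animals, and the scurred animals overlapped both groups. The share of all probes that separate polled from horned animals in this way was not counted. Against the horned animal of the same chip, the polled animal differed by −0.41, −0.54, −0.3 and −0.35 on chips 1 to 4, a mean of −0.4 ± 0.1 (SD, n = 4). Adjusted for sex, the estimate was −0.41 (SE 0.128, 95% interval −0.71 to −0.11), a ratio of 0.751, with an adjusted p of 0.483 in limma. It was negative on all 8 polled against horned arrays, although it was further from 0 with polled RNA in the red dye (−0.74 to −0.43) than in the green (−0.37 to −0.12). With the scanner's own processed signals the same difference was −0.939 (adjusted p 0.281). The probe was dim, with levels near those of GART (6.66 to 7.21), though it was well above background on every spot.

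In scurred against horned skin IFNAR1 stood at −0.12 (SE 0.122, adjusted p 1), with 0.04, −0.2, −0.29 and −0.09 on the 4 chips. Scurred against polled gave 0.29 (SE 0.124, 95% interval 0 to 0.58, adjusted p 0.827), higher in scurred on 4 of 4 chips, and 0.168 without polled replicate 2. The 2 comparisons with polled share the polled animals, and those with horned share the horned ones. Over the 11 animals the levels of PHF19 (Pearson r 0.95), SPON1, a matrix protein (0.929), and PDIA5 (0.902) ran closest to IFNAR1. Such genes are the 3 highest of 12342 compared, over animals that share arrays, and are given as a description.

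IFNAR2, the chain that binds type I interferon most tightly, was bright and did not separate the groups. Levels were 12.04, 11.52, 11.86 and 11.35 in polled, 11.47, 11.39, 11.91 and 11.82 in scurred, and 12.1, 11.97 and 11.82 in horned animals. Polled minus horned was −0.24 (SE 0.205, 95% interval −0.73 to 0.24, adjusted p 0.73) and scurred minus horned −0.23 (SE 0.196, adjusted p 1). In each comparison the sign was negative on 3 of 4 chips, the exception being chip 3. Its level over the 11 animals ran closest to those of IRF9 (r 0.927), CLEC1A (0.923) and SBF2 (0.919). IRF9 is a DNA-binding factor downstream of this receptor.

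IFNGR2, which joins IFNGR1 in the interferon gamma receptor, was the other receptor lower in polled skin on every chip. It measured 12.39, 11.42, 12.09 and 11.55 in polled, 12.32, 12.07, 12.88 and 12.28 in scurred, and 12.92, 12.13 and 12.37 in horned animals. Polled and horned levels overlapped, with polled replicate 1 above horned replicate 2, but within chips the polled animal differed from the horned one by −0.51, −0.75, −0.33 and −0.55 (mean −0.54 ± 0.17, SD, n = 4). Here too the differences of chips 2 and 4 share a horned animal. The estimate was −0.57 (SE 0.229, 95% interval −1.11 to −0.03), a ratio of 0.674, with an adjusted p of 0.525 in limma. All 8 polled against horned arrays had the same sign, with a median gap of 0.4 between the dye orders of a chip. The difference was −0.94 to −0.51 with polled RNA in red and −0.54 to −0.14 with polled RNA in green.

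Scurred and horned animals did not separate for IFNGR2, with chip values of −0.65, −0.04, 0.48 and 0.19 and an estimate of 0.01 (SE 0.218, 95% interval −0.5 to 0.52, adjusted p 1). Scurred minus polled was 0.58 (SE 0.222, 95% interval 0.06 to 1.1, adjusted p 0.801), positive on chips 2 to 4 (0.71, 0.81 and 0.74) and −0.13 on chip 1, which holds scurred replicate 1. Without that animal it was 0.773, and without polled replicate 2 it was 0.384. The genes closest to IFNGR2 over the 11 animals were MFAP2, a microfibril protein (r 0.962), GLIPR2 (0.952) and CLEC3B, or tetranectin (0.951).

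In IL10RB, the shared chain, levels were 8.96, 9.03, 9.34 and 8.81 in polled, 9.34, 9.01, 9.25 and 8.92 in scurred, and 8.92, 8.96 and 9.2 in horned animals, with all 3 groups overlapping. The estimate was 0.08 (SE 0.126, 95% interval −0.22 to 0.37, adjusted p 0.878) for polled minus horned. For scurred minus horned it was 0.17 (SE 0.12, 95% interval −0.11 to 0.45, adjusted p 1), with the scurred animal higher on 4 of 4 chips by 0.05 to 0.39. The 2 dye orders of polled against horned differed by a median of 0.46 for this probe, more than the difference itself. FBXW2 (r 0.945), ETV2 (0.928) and FAM20B (0.894) were closest to it.

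**Figure D2:**
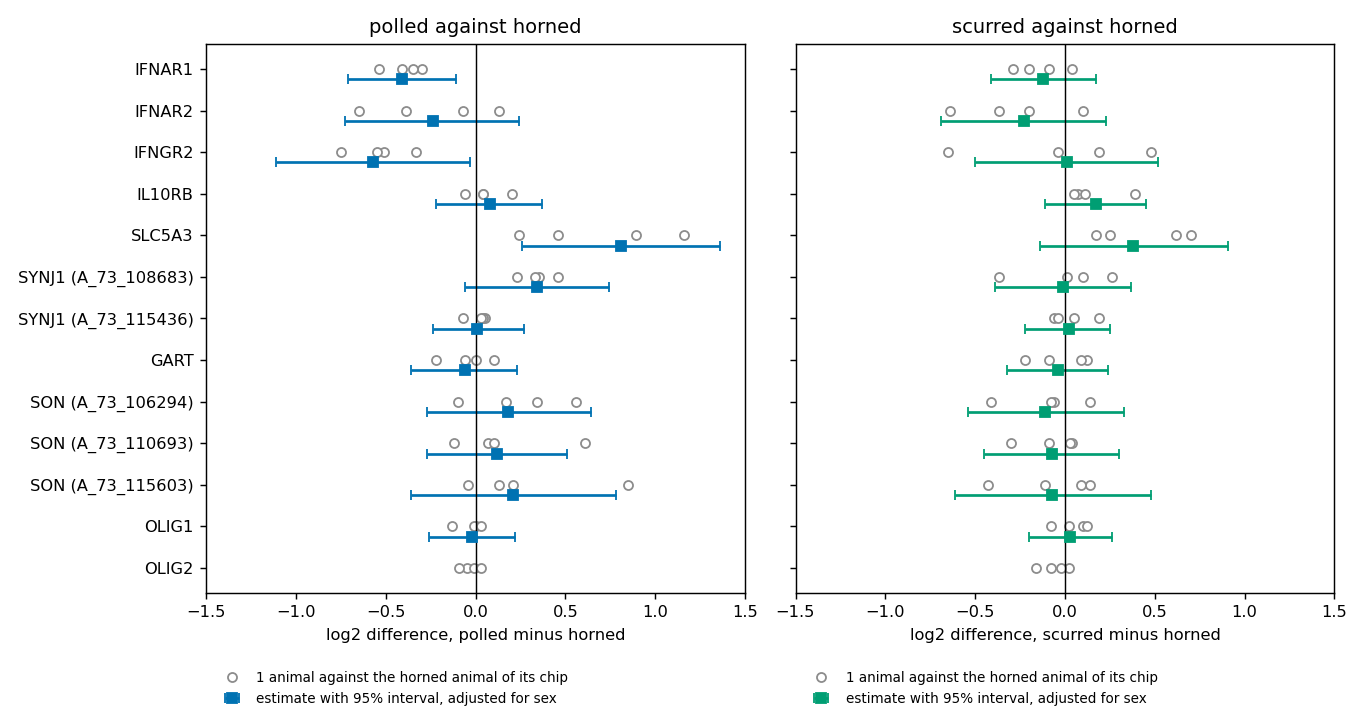
Log2 differences of polled (left) and scurred (right) animals against the horned animal of the same chip, 1 row per probe; open circles are the 4 chips, squares the estimate with its 95% interval. In polled animals all 4 circles lie left of 0 for IFNAR1 and IFNGR2 and right of 0 for SLC5A3 and SYNJ1 probe A_73_108683; OLIG2 was not tested.

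SLC5A3, the sodium and myo-inositol cotransporter, had the largest difference among the members. Its level was 6.88, 7.66, 7.78 and 6.94 in polled, 6.94, 6.81, 7.07 and 7.41 in scurred, and 6.36, 6.63 and 6.87 in horned animals. Every polled animal lay above every horned one, the nearest pair being 6.88 and 6.87, again with no count over all probes. By chip, polled exceeded horned by 0.46, 1.16, 0.89 and 0.24, and all 8 arrays had this sign, with the 2 dye orders of a chip within 0.17 of each other. The estimate was 0.81 (SE 0.234, 95% interval 0.26 to 1.36), a 1.75-fold ratio, with an adjusted p of 0.476 in limma. One horned animal was not well above background for this probe. The scanner-processed signals gave a log2 difference of 1.85 (adjusted p 0.331). Without chip 2 the estimate was 0.485 (adjusted p 1).

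Scurred animals were also above the horned animal of their chip in 4 of 4, by 0.62, 0.25, 0.17 and 0.7, with an estimate of 0.38 (SE 0.223, 95% interval −0.14 to 0.91, adjusted p 1). Scurred minus polled was −0.42 (SE 0.227, adjusted p 0.852), with chip values of 0.17, −0.91, −0.72 and 0.46 that went both ways. In RefSeq the gene lies beside MRPS6, which is not analysed here. The genes closest to it in pattern were SASH3, an adaptor of lymphocytes (r 0.901), UHRF2 (0.866) and LHX3 (0.854). No other tested member probe had a closest gene at a lower correlation.

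Higher in 4 of 4 chips in polled than in horned skin were 2 of the 12 probes, SLC5A3 and SYNJ1 A_73_108683, and lower in 4 of 4 were 2, IFNAR1 and IFNGR2. Of all probes, 14.3% were higher and 13.1% lower on 4 of 4 chips. Scurred animals were higher in 4 of 4 for 2 probes, IL10RB and SLC5A3, and lower in 4 of 4 for 0, where 8.53% and 9.76% of all probes were. With 12 probes, 2 in a direction is near these shares.

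The 2 probes of SYNJ1 gave different pictures. A_73_108683 was designed on an expressed sequence tag, and it holds ATTAAA in its last 30 bases, where A_73_115436 holds it mid-probe. It read 9.45, 9.88, 10.03 and 9.79 in polled, 8.58, 9.67, 9.74 and 9.91 in scurred, and 9, 9.56 and 9.66 in horned animals. Polled exceeded horned by 0.46, 0.35, 0.33 and 0.23 on the 4 chips (estimate 0.34, SE 0.17, 95% interval −0.06 to 0.74, adjusted p 0.57). This probe also had the largest gap between dye orders of the 13, a median of 0.65. With polled RNA in red the difference was 0.62 to 0.7, and with polled RNA in green −0.18 to 0.16. A_73_115436, designed on the reference mRNA, was dim and flat at 6.72 to 7.06 in polled, 6.6 to 6.9 in scurred and 6.78 to 7.05 in horned animals. Its estimate was 0.01 (SE 0.107, adjusted p 0.979), with dye orders within 0.11. The genes closest to A_73_108683 were CREBBP, a histone acetyltransferase (r 0.973), ARID2 (0.968) and NFAT5 (0.966), and those closest to A_73_115436 were FBXO11 (0.926), TUBGCP3 (0.923) and HTATSF1 (0.92).

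**Figure D3:**
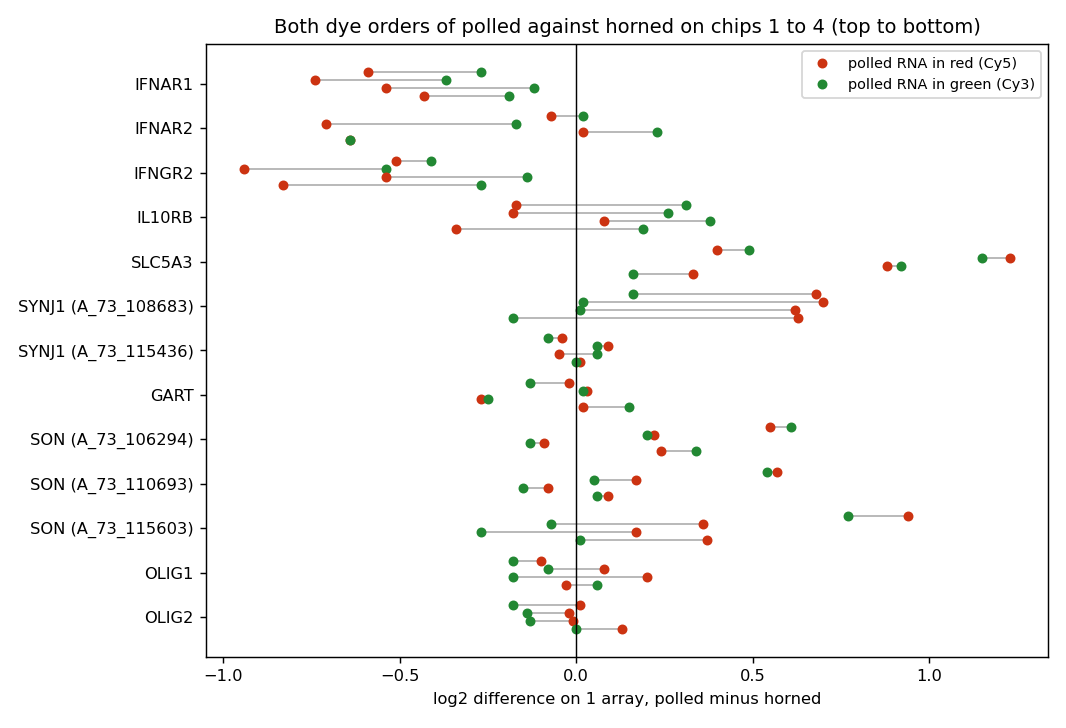
Log2 difference of polled minus horned on single arrays, with polled RNA in red or in green; lines join the 2 arrays of a chip, chips 1 to 4 from top to bottom within a row. SYNJ1 probe A_73_108683 has a median gap of 0.65 between dye orders and SLC5A3 of 0.08, and IFNAR1 and IFNGR2 stay below 0 in both.

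SON was read by 3 probes, 2 of which carry the identifier of SON (A_73_106294 and A_73_110693). The third, A_73_115603, is described as SON, but its gene identifier belongs in RefSeq to SRSF5, a splicing factor gene on chromosome 10. Over the 11 animals it correlated with the other SON probes at Pearson r 0.979 and 0.969 and with the other SRSF5 probe (A_73_113378) at 0.839. The sequence above was not aligned to a genome, so its target is left as described. By A_73_106294 the level was 8.83, 9.18, 9.07 and 9.35 in polled, 7.9, 9.1, 9.08 and 8.97 in scurred, and 8.28, 9.03 and 9.19 in horned animals. Low in all 3 probes were scurred replicate 1 and horned replicate 1, which share chip 1. A_73_115603 gave 12.94 and 13.24 for these animals, against 14.13 to 14.42 for the other 9.

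Differences for SON between polled and horned skin were 0.18 (SE 0.194), 0.12 (SE 0.167) and 0.21 (SE 0.242) for A_73_106294, A_73_110693 and A_73_115603, with adjusted p of 0.798, 0.846 and 0.809. Chip 1 had the highest value for each probe, at 0.56, 0.61 and 0.85, beside −0.12 to 0.34 on the other chips. The lowest estimates with a chip or animal left out were 0.0153 without horned replicate 2, −0.0146 without chip 1 and −0.00513 without polled replicate 1, for the 3 probes in that order. Scurred minus horned ran from −0.11 to −0.07 over the 3 probes (adjusted p 1 for each). SYNJ1 probe A_73_108683 shared the low animals, and its levels correlated with the 3 SON probes at r 0.923, 0.887 and 0.938, with Spearman correlations of 0.545, 0.609 and 0.655. FOXJ3 (r 0.982), MFSD8 (0.981) and TARDBP, an RNA-binding protein (0.974), were closest to A_73_106294. TTLL3 (0.962), MAU2 (0.959) and ARGLU1 (0.954) were closest to A_73_110693, and MAU2 (0.976), PRPF39 (0.975) and KMT2A (0.975) to A_73_115603. Spearman correlations of these genes were lower, at 0.827 to 0.891, 0.655 to 0.718 and 0.527 to 0.809 for the 3 probes in that order.

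GART, the purine enzyme beside SON, was dim, and its groups overlapped. It read 7, 6.8, 6.66 and 6.87 in polled, 7.21, 6.91, 6.7 and 6.67 in scurred, and 7.07, 6.76 and 6.86 in horned animals. Polled minus horned was −0.06 (SE 0.125, 95% interval −0.36 to 0.23, adjusted p 0.905) and scurred minus horned −0.04 (SE 0.119, adjusted p 1). Its pattern opposed that of the SYNJ1 probe A_73_108683 (r −0.908, Spearman −0.827), being high where that probe was low. USP5 (r 0.944), GTF2E1 (0.927) and MVD (0.924) were closest to GART.

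OLIG1 lay at 6.4 to 6.58 in polled, 6.45 to 6.59 in scurred and 6.46 to 6.74 in horned animals. OLIG2 lay at 6.06 to 6.17 in polled, 6.09 to 6.13 in scurred and 6.1 to 6.14 in horned animals. OLIG1 gave −0.02 (SE 0.103, adjusted p 0.967) for polled minus horned and 0.03 (SE 0.0977, adjusted p 1) for scurred minus horned. Its probe is 73.3% G and C, which 0.44% of all probes reach, against a median of 43.3%. PRDM12 (r 0.942) and ERCC4 (0.934) were closest to it in level, with 8 of the 11 animals not well above background.

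Genes of the same pathway were read from lists. As a background for these and the later lists, 5506 of 11387 genes were lower in polled than in horned skin. In scurred against horned skin 5464 were lower. None of the 12 tested JAK-STAT genes was called, and 8 were lower in polled than in horned skin, with a median of −0.13. SOCS1, a feedback inhibitor of JAK kinases, was highest at 0.15 (SE 0.196, adjusted p 0.833). Scurred minus horned had 9 of 12 lower and a median of −0.15.

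Of 20 interferon targets with a probe, 15 passed the background filter. They lay lower in polled skin in 14 of 15, with a median of −0.42, and in scurred skin in 14 of 15, with a median of −0.36. RSAD2, counted as lower in polled skin, stood at 0 (SE 0.322, adjusted p 0.999). Neither comparison called a gene, and both rest on the same 3 horned animals. On single chips the median was −0.04, −0.35, −0.16 and −0.59 in polled and −0.44, −0.36, −0.23 and −0.12 in scurred animals. GBP4, a guanylate-binding protein induced by interferon gamma, was lowest at −1.12 (SE 0.517, adjusted p 0.555). PSMB9, an immunoproteasome subunit, stood at −0.64 (SE 0.256, adjusted p 0.525). The exception was IFI47, an interferon-inducible GTPase, at 3.53 (SE 0.378, adjusted p 0.2) in polled and 3.78 (SE 0.359, adjusted p 0.194) in scurred against horned skin.

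Among other chains and ligands of these receptor families, 7 of 14 genes with a probe were tested and 0 were called, with 4 higher in polled skin and a median of 0.14. IFNGR1, the ligand-binding partner of IFNGR2, gave −0.27 (SE 0.26, adjusted p 0.769). IFNLR1, which pairs with IL10RB in the lambda interferon receptor, gave 0.83 (SE 0.425, adjusted p 0.574) in polled and 1.06 (SE 0.404, adjusted p 1) in scurred against horned skin. The highest was IL20RA, a chain that also pairs with IL10RB, at 2.47 (SE 1.05, adjusted p 0.532), and IL10 was lowest at −0.28 (SE 0.178, adjusted p 0.64).

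Of the other genes listed near the polled locus, 18 were tested, 12 were higher in polled than in horned skin, 0 were called, and the median was 0.1. TIAM1, an activator of Rac, was highest at 1.28 (SE 0.412, adjusted p 0.485), and DONSON, a replication fork protein next to SON, was lowest at −0.15 (SE 0.129, adjusted p 0.748). ITSN1, an endocytic scaffold between SLC5A3 and SON, stood at 0.07 (SE 0.14, adjusted p 0.908).

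Partners of the non-receptor members showed no calls either. Inositol and osmolyte genes had 4 of 6 higher in polled skin, from −0.06 for AKR1B1 to 0.75 for SLC5A1, with a median of 0.05. Purine synthesis genes had 8 of 9 lower with a median of −0.1, from −0.3 for PRPS1 to 0.13 for GMPS. Endocytic partners of synaptojanin ran from −0.21 for CLTC to 0.36 for SYNJ2, with a median of 0.12 over 11 genes. SR-type splicing factors ran from −0.33 for SRRM1 to 0.35 for SRPK1, with a median of −0.03 over 13 genes. Glial and myelin genes were lower in 8 of 8 in polled skin, with a median of −0.46 and MBP highest at −0.22. The medians on chips 1 to 4 were 0.03, −0.98, 0.03 and −0.77, and the chips with negative medians, 2 and 4, share horned replicate 2.

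Horn site was compared with skull skin away from it in 2 animals. Of 11 tested member probes, 0 were called at an adjusted p under 0.05 (0% of 14653 probes), and 0 had an unadjusted p under 0.05 (4.68% of all), with n = 2. In scurred replicate 2 the 4 receptor chains had positive mean differences, higher at the horn site. IFNGR2 differed by 0.6 and 1.01 in the 2 dye orders (mean 0.81), IFNAR2 by 0.43 and 0.94 (mean 0.69) and IFNAR1 by 0.28 and 0.32 (mean 0.3), while IL10RB gave −0.04 and 0.68 (mean 0.32). In polled replicate 3 the means were −0.23 for IFNGR2, 0.08 for IFNAR2, −0.24 for IFNAR1 and −0.2 for IL10RB. SLC5A3 went the other way, at 0.45 in the polled and −0.23 in the scurred animal. Averaged over both animals, IFNGR2 was 0.29 (SE 0.309, 95% interval −0.64 to 1.21, adjusted p 0.985) and SLC5A3 0.11 (SE 0.221, 95% interval −0.55 to 0.77, adjusted p 0.998). These averages depended on the normalization. With median centring in place of loess, IFNGR2 averaged −0.0608 and IL10RB −0.132 (0.06 with loess). IFNAR2 then averaged 0.0615 (0.39 with loess) and IFNAR1 0.125 (0.03 with loess).

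**Figure D4:**
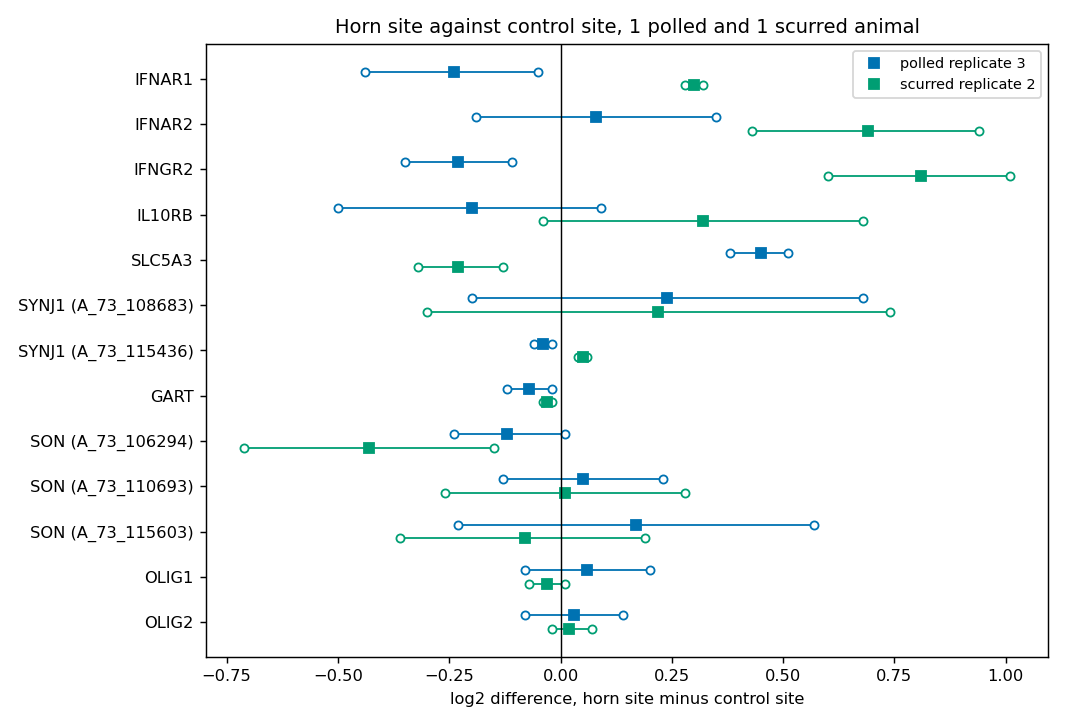
Horn site minus control site (log2) in polled replicate 3 and scurred replicate 2; open circles are the 2 dye orders, squares their mean. IFNAR1 and IFNGR2 lie below 0 in the polled and above 0 in the scurred animal, and SLC5A3 the other way round.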

How the data were processed

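In the deposited files every spot has a mean intensity for red and for green, a local background, and processed intensities, background subtracted and dye normalized per the file headers. The deposited log10 ratio (red over green) is the same in the series matrix, apart from its sign in 6 of 20 columns (column medians −0.019 to 0.00971), and served as a check only. The submitters' processing notes name Agilent Feature Extraction 9.5.1. Replicates are numbered by chip.

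Normexp (offset 50) and loess were applied to the mean intensities in limma 3.58.1 (R 4.3.3; tables handled by the data.table package, version 1.17.8). Flagged spots were left out, 0 to 19 per array and none of a member, and duplicate spots were averaged. A probe was tested when most of its spots were well above background in at least 3 of 11 animals (15375 probes), or in 2 of the 4 RNAs of chip 5 (14653). Arrays were reduced to 8 differences against the horned animal of the chip, with a dye term, and fitted by generalized least squares with polled, scurred and male terms (5 residual degrees of freedom; two-sided moderated limma tests, Benjamini-Hochberg over all probes, threshold 0.05). Levels come from separate channels after Aquantile scaling. The fit was tested on simulated data. Dye-swapped pairs of arrays had r of −0.943 to −0.817, and on chip 5 of −0.705 and −0.665.

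The chip is a block by design. Deviations from the group mean, polled with scurred, had within-chip correlations of 0.237, 0.289, 0.423 and −0.0845. Between chips they were −0.132, −0.131, −0.0714 and 0.058. Deviations from a group mean cancel over its chips, so the between-chip values tend to the opposite sign by construction. They are no separate baseline for the within-chip values. Precision is limited by how few animals there are.

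Of 21475 probes, 16417 had a gene symbol, by RefSeq identifier (9717), accession (3398), the human gene in the description (2699), an older symbol (304) or the symbol itself (299). Members and lists were chosen with earlier results of these data known. Named were every member probe, the lowest and highest gene of each other list in polled minus horned, with any that passed, and the 3 genes most like a member. PSMB9, IFNGR1, IFNLR1 and ITSN1 were named after their values were seen. A few genes that this rule names are not reported here.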

Additional observations from a re-analysis of the deposited data

Results flagged for a closer look

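Scurred replicate 1 lay far from the other scurred animals for 3 of the 12 tested probes, where chance flags about 5% of groups; of the same probes in polled animals none was apart. The probes are not independent, and the 2 SON probes among the 3 correlated at 0.979 over the 11 animals. Its level was 7.9 for SON probe A_73_106294, with the nearest animal at 8.97, 12.94 for A_73_115603, with the nearest at 14.16, and 6.6 for SYNJ1 probe A_73_115436, with the nearest at 6.86. Horn site against control site went opposite ways in polled replicate 3 and scurred replicate 2, in both dye orders, for 4 probes. The values in the polled and the scurred animal were −0.24 and 0.3 for IFNAR1, −0.23 and 0.81 for IFNGR2, 0.45 and −0.23 for SLC5A3, and −0.04 and 0.05 for SYNJ1 probe A_73_115436. With 1 animal of each horn type, the difference between them was not tested.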

How the results depend on the processing

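The count of members called stayed at 0 in each comparison between horn types under all 24 alternatives, and at 0 under 6 in the site comparison. Polled minus horned kept its sign for IFNAR1 (−0.939 to −0.311), IFNGR2 (−0.704 to −0.409) and SLC5A3 (0.485 to 1.85), with adjusted p of at least 0.278, 0.319 and 0.273. The count of member probes at an unadjusted p under 0.05 in that comparison was 0 without chip 2 or without polled replicate 2. It was 1 without horned replicate 2 and 4 without scurred replicate 1, against 3 in the full set. Polled replicate 2 is the only polled male, so leaving it out also changes the sex term. Its chip also held the largest difference for IFNAR1, IFNGR2 and SLC5A3, and why the count fell was not tested. For scurred minus polled the count ran from 0 to 2 with an animal or chip left out. It was 0 with median centring and 3 with no sex term, against 2, and it moved under 18 of 24 alternatives. SLC5A3 in scurred minus polled ran from −0.584 without replicate 4 to 0.0322 without replicate 2. Between sites, SYNJ1 probe A_73_108683 reversed to −0.0246 with median centring. Other site estimates, each within its SE of 0, also changed sign with median centring. These were IFNGR2 (−0.0608), IL10RB (−0.132), GART (0.112) and SON probes A_73_110693 (−0.363) and A_73_115603 (−0.356). The cause was not tested. Without the chip as a block, 0 members were called, and polled minus horned was −0.448 for IFNAR1, −0.576 for IFNGR2 and 0.804 for SLC5A3. The 1 probe called in polled minus horned was lost under 17 of 24 alternatives. Ranking likeness by Spearman shared at most 1 of 3 genes with the Pearson ranking for each member probe. Low signal limits SLC5A3, GART and OLIG1, which were not well above background in every animal. IFNAR1 passed on every spot but was also dim, at 6.85 to 7.47. Its difference in polled minus horned moved from −0.413 to −0.939 with the scanner-processed signals. The offset was not changed on its own.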
